A study of Mus musculus with 8 samples.

Results

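The genes described here are 37 genes of pancreatic mesenchyme and smooth muscle, chosen by name: fibrillar collagens, collagen VI, other matrix proteins, receptors and surface proteins, mesenchymal transcription factors and the contractile genes of smooth muscle. A gene was included where a probe of the array carried its name, and its brightest probe, by the mean of the 8 arrays, stood for it. This found 36 of the 37 genes among 19296 genes and unnamed transcripts that were tested. The remaining gene, Hlx, is on the array under the older name Hlx1 and was therefore not found by the name. The rule uses gene names alone. Bapx1 and Foxf1a are the array's names for Nkx3-2 and Foxf1.

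The mesenchyme that surrounds the embryonic pancreatic bud supplies growth factors and retinoic acid that keep epithelial progenitors dividing and branching. Its cells make an interstitial matrix of fibrillar collagens, collagen VI, small leucine-rich proteoglycans and microfibrils, and part of it forms the smooth muscle and pericyte coats of vessels and, next to the bud, of the gut. Transcription factors such as Nkx3-2, Barx1, Tcf21, Foxf1 and the Twist and Meox proteins pattern this tissue and the neighbouring stomach and spleen mesenchyme. Sox9 itself acts in pancreatic progenitors and ducts, and also in cartilage, glia and other tissues.

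Expression was measured on one-colour arrays in hand-microdissected pancreatic epithelium, dorsal and ventral together, of mouse embryos at e15.5. The mutant group held 4 pools of Sox9 fl/fl; Rosa26-CreER embryos and the wild-type group 4 pools of Rosa26-CreER littermates, and each pool joined 4 pancreata. Sox9-flox mice, of a mixed background from FVB/N, C57Bl/6J and CD1, had been crossed with Rosa26-CreER mice, whose background was C57Bl/6J. The dams of both groups received 6 mg tamoxifen per 40 g at e12.5, 3 days before dissection. The Rosa26 locus is active in nearly all cell types, so the recombinase is not limited to epithelium, and the wild-type embryos carried it too. In tissue RNA, fewer cells of a type and less RNA per cell cannot be told apart.

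Levels are given as log2 of the scanner's processed signal minus the array's 75th percentile, so a level of 0 is the 75th percentile of that array. Levels of different genes are not compared, since probes differ in brightness. Sox9 was measured at 1.68, 1.82, 1.78 and 1.68 in the wild-type pools and at 0.52, 0.34, 0.45 and 0.40 in the mutant pools, a log2 fold change of -1.32 (SE 0.07, limma adjusted p = 7.97e-04). All wild-type pools were on one slide and all mutant pools on another, so slide and genotype cannot be told apart. The array of mutant replicate 2 stood apart: its median processed signal was 755.9 scanner units against 219.2 to 271.8 on the other 7, and 85.9% of its probes were well above background against 69.0% to 73.4%. Its median correlation with arrays of its genotype was 0.92, against at least 0.99 for the others. Results that rest on this array are given with and without it.

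All 36 genes were well above background on all 8 arrays and none was saturated, so RNA of these mesenchymal and smooth muscle genes was present in every pool labelled as epithelium. Of all 19296 features, 17309 were well above background on all 8 arrays too. Bapx1 and Barx1 rose in the mutant pools, and no gene of the group fell (limma, adjusted p under 0.05). Over all 19296 features, 2.23% rose and 3.28% fell, and 5.51% were called in either direction, against 5.56% of the 36 genes. Among the 1063 calls over all features 40.5% were higher in the mutants, a share that was 21.2% with another background correction (normexp). At an unadjusted p under 0.05 there were 9 of the 36 genes, or 25%, against 25.3% of all features. Of these, 4 were higher and 5 lower, where 10.6% of all features were higher and 14.7% lower. In 7 of the 36, or 19.4%, the values of the genotypes did not overlap, against 25.5% of all features. The mutant pools were above in 4 of these genes, against 11.3% of features, and below in 3, against 14.2%. None of these shares stood out from the background.

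The median log2 fold change of the 36 genes was -0.08, beside 0.01 over all features, and 23 of the 36 values were negative. This order depended on the scaling. With quantile normalization the median of the genes was 0.00 beside -0.06 over all features, and with normexp it was -0.02 beside -0.09. The 95% interval of the difference lay within 1.5-fold in either direction for 24 of the 36 genes and within 2-fold for 33. Of all 19296 features, 10610 lay within 1.5-fold and 13830 within 2-fold, so most features met these bounds too. Without mutant replicate 2, 4 genes rose (Bapx1, Barx1, Twist1 and Des) and 2 fell (Lum and Meox2), which is 16.7% of the genes against 17.3% of all features, 7.18% that rose and 10.1% that fell.

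**Figure D1:**
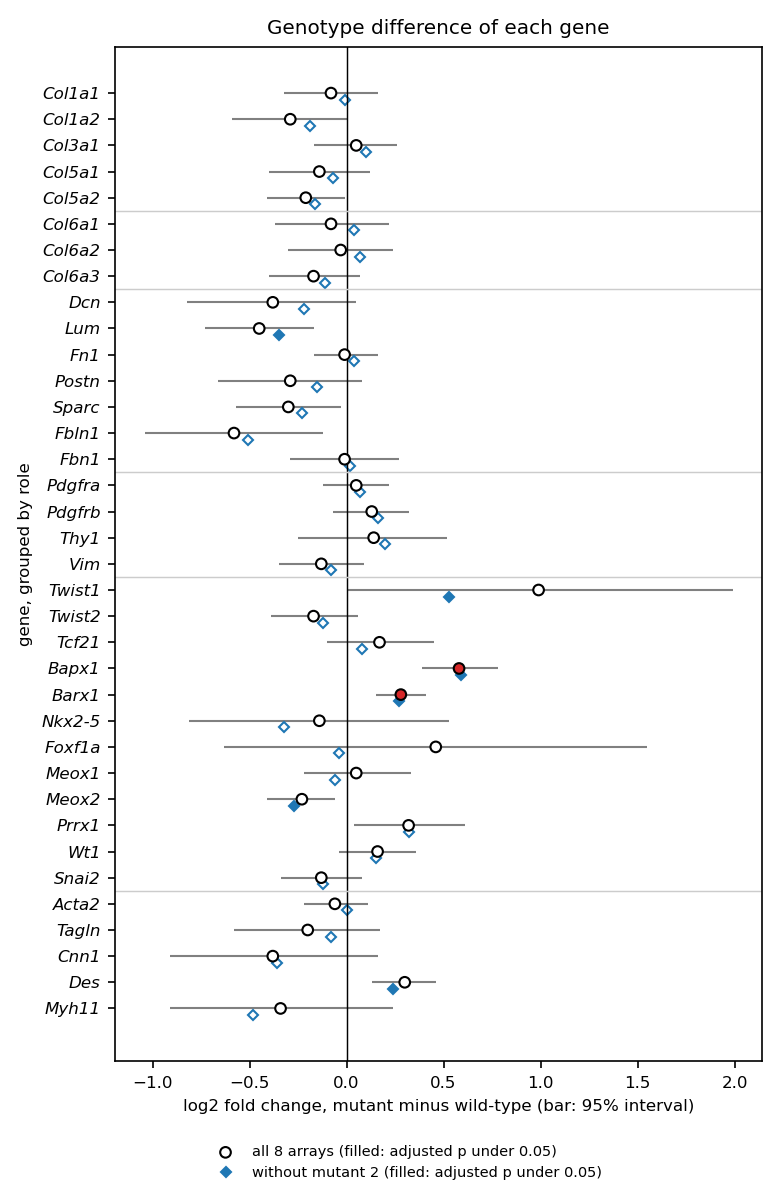
Log2 fold change, mutant minus wild-type, of the 36 genes ordered by role, as circles with 95% intervals from all 8 arrays and as blue diamonds from the fit without mutant replicate 2; filled symbols have an adjusted p under 0.05. Only Bapx1 (0.58) and Barx1 (0.28) are filled in the fit of all arrays, and the intervals of Twist1 and Foxf1a are wide.

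Among the transcription factors, 2 of 12 rose and none fell, where 2.23% of all features rose and 3.28% fell. Bapx1, or Nkx3-2, encodes a homeobox factor of spleen, stomach and pancreatic mesenchyme and of the axial skeleton. Its probe lies at chr5:42049579-42049638 on the minus strand of mm8. It measured -1.71, -2.06, -1.87 and -1.80 in the wild-type pools and -1.28, -1.29, -1.24 and -1.29 in the mutant pools. The groups did not overlap, and the 4 mutant pools lay closer to each other than the wild-type pools did. The mutant pools were 1.5-fold higher (log2 fold change 0.58, SE 0.08, limma adjusted p = 0.0114). The call held when any single array was left out, with adjusted p between 0.00700 and 0.0443. It was lost with other scalings, at 0.32 (adjusted p = 0.363) with quantile normalization, 0.17 (0.756) with centring on the array median and 0.34 (0.894) with normexp. A second Bapx1 probe gave 0.53 (adjusted p = 0.0664 over all probes).

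Barx1 encodes a homeobox factor of stomach mesenchyme, and its probe lies at chr13:48677992-48678051 on mm8. It measured 0.61, 0.69, 0.67 and 0.74 in the wild-type pools and 0.94, 1.0, 0.95 and 0.95 in the mutant pools. The groups did not overlap, and the mutant pools were 1.21-fold higher (log2 fold change 0.28, SE 0.05, limma adjusted p = 0.0323). Of the 8 fits that each left out 1 array, only the one without mutant replicate 2 kept the call (adjusted p = 0.0164), and in the others the adjusted p lay between 0.0520 and 0.105. The call was also lost with normexp (0.35, adjusted p = 0.184) and without a filter on dim probes (0.28, adjusted p = 0.101). With arrays centred on their median the sign turned, to -0.13, where the median over all features was -0.40.

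The promoters of Bapx1 and Barx1, the genes that rose, and of Twist1 and Fbln1, the genes with the largest positive and negative difference with all arrays, are shown because Sox9 is the factor removed in the mutants. Without mutant replicate 2, Bapx1 (0.59) exceeds Twist1 (0.53), and without wild-type replicate 4, Dcn (-0.43) is more negative than Fbln1 (-0.39). Each is the 250 bases before the RefSeq transcription start on GRCm38.p6, read 5′ to 3′ on the gene's strand. Capitals mark ACAAT, or ATTGT where it lies on the other strand, letters within the core motif that SOX proteins bind.
Bapx1 (Nkx3-2), chr5:41764221-41764470, minus strand: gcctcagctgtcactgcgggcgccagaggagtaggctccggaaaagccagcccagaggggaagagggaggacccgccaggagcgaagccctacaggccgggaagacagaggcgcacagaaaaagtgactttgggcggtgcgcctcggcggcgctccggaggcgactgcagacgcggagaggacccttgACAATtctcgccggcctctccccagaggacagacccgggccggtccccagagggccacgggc
Barx1, chr13:48662786-48663035, plus strand: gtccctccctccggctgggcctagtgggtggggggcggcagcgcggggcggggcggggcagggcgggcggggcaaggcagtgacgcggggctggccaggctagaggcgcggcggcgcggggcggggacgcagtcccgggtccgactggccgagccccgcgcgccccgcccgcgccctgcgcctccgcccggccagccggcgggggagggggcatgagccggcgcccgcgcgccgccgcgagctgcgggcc
Twist1, chr12:33957421-33957670, plus strand: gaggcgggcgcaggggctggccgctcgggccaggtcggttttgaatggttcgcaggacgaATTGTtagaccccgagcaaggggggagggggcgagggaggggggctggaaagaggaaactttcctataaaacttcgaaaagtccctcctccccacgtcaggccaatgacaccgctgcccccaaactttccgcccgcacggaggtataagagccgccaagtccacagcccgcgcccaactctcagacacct
Fbln1, chr15:85205699-85205948, plus strand: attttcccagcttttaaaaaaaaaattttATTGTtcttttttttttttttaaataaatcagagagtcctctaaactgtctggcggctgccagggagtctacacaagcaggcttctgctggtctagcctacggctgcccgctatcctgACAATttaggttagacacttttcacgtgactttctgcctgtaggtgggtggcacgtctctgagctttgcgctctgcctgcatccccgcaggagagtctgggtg

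The letters occur once in the Bapx1 window, 62 bases before the start, and once in that of Twist1, 190 bases before it. The Fbln1 window holds them 221 and 103 bases before the start, and the Barx1 window does not hold them. Of the 36 genes, 23 had a promoter in the RefSeq table, and 6 of those, or 26.1%, held the letters on either strand. The share was 27.7% among all 32851 promoters that it lists, so the genes were close to the background. The units differ, since each of the 23 genes was counted by its first listed promoter and the background counts every promoter listed. A match of so few letters is a description and not a binding site.

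Twist1, a basic helix-loop-helix factor of embryonic mesenchyme and neural crest, measured -3.70, -3.70, -3.64 and -3.54 in the wild-type pools and -3.12, -1.25, -2.98 and -3.26 in the mutant pools. The groups did not overlap, but mutant replicate 2 lay far above the other mutant pools, at 1070 scanner units against 226 to 277. The negative control probes of that array had a median of 20.4 units against 4.4 to 6.5 on the others. With all arrays the difference was 0.99 (SE 0.43, adjusted p = 0.199). Without mutant replicate 2 it was smaller and passed the test, at 0.53 (SE 0.08, adjusted p = 0.00807).

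Meox2, a homeobox factor of somite and vascular mesenchyme, lay at -0.83, -0.92, -0.95 and -0.83 in the wild-type pools and at -1.25, -1.0, -1.04 and -1.17 in the mutant pools. Here too the genotypes did not overlap. The difference was -0.23 (adjusted p = 0.115), and it was -0.27 without mutant replicate 2, where it was called (adjusted p = 0.0371). A second Meox2 probe gave 0.33 with all arrays and -0.28 without mutant replicate 2, and it passed in neither fit.

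Prrx1, a homeobox factor of limb and craniofacial mesenchyme, had wild-type levels of 0.21, 0.62, 0.56 and 0.19 and mutant levels of 0.75, 0.72, 0.58 and 0.83. The lowest mutant pool lay below the highest wild-type pool, and the difference was 0.32 (SE 0.12, adjusted p = 0.157). All 5 other Prrx1 probes that were tested had a positive difference, and 1 of them passed the test over all probes at 0.59 (adjusted p = 0.0233). That probe was dim, at -5.76 in wild-type and -5.17 in mutant pools on average, and was well above background on 7 arrays. The probes closest to the main one in brightness gave 0.21 and 0.14 (adjusted p = 0.342 and 0.493).

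Tcf21, a factor of mesothelial and visceral mesenchyme, ran from 1.02 to 1.31 in the wild-type pools and lay at 1.19, 1.6, 1.36 and 1.14 in the mutant pools, with a difference of 0.17 (adjusted p = 0.386). Snai2, known for its part in epithelial-mesenchymal transition, lay at 2.87, 2.83, 3.04 and 3.19 against 2.89, 2.83, 2.86 and 2.83, a difference of -0.13 (adjusted p = 0.393). Both pairs of groups overlapped.

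Foxf1a encodes a forkhead factor of splanchnic mesenchyme that responds to Hedgehog signals. Its mutant levels were -4.67, -2.66, -4.63 and -4.70 and its wild-type levels ran from -4.86 to -4.39. The difference of 0.46 (adjusted p = 0.538) became -0.04 (adjusted p = 0.847) without mutant replicate 2. Twist2 (-0.17), Meox1 (0.05) and Wt1 (0.16), the last a factor of mesothelium, had adjusted p of 0.311, 0.788 and 0.288. Hlx, measured by the probe named Hlx1, lay at -0.69 ± 0.14 (SD, n = 4) in wild-type and -0.79 ± 0.04 (SD, n = 4) in mutant pools, a difference of -0.11 (adjusted p = 0.431). The median of the 12 factors was 0.17 with all arrays and 0.02 without mutant replicate 2, the array on which 7 of the 12 were the highest of the mutant pools. Over all features that array was the highest mutant pool in 42.5%.

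**Figure D2:**
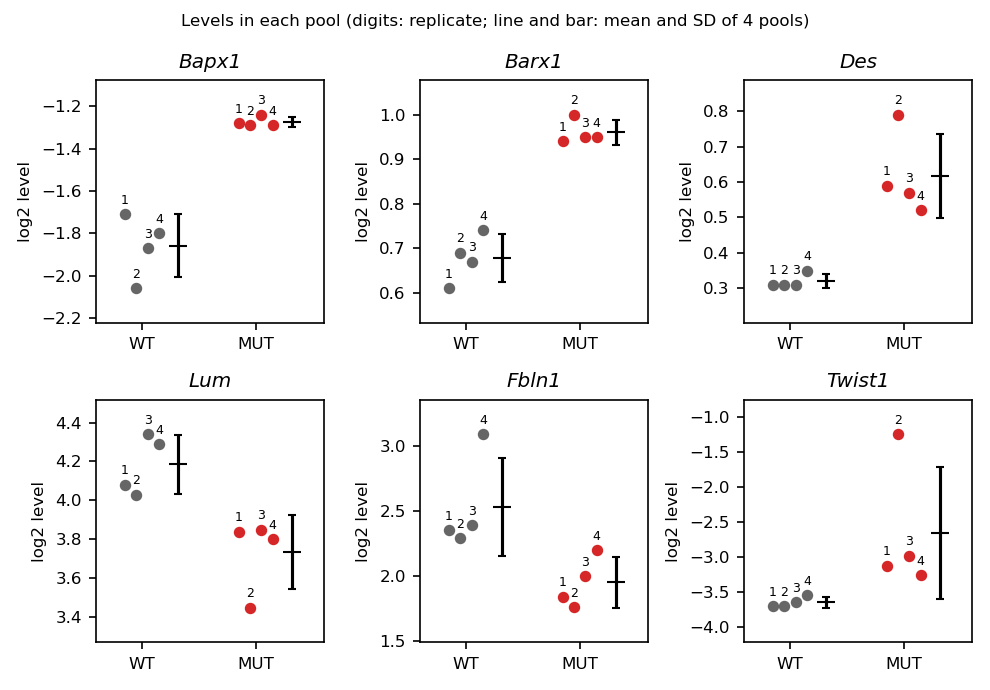
Log2 level of 6 genes in each pool, relative to the 75th percentile of its array; points are pools numbered by replicate, and the line and bar at the side of each group are the mean and SD of its 4 pools. In all 6 genes the groups do not overlap; mutant replicate 2 is far from the other mutant pools for Twist1 (-1.25) and Lum (3.45), and wild-type replicate 4 is far from its group for Fbln1 (3.09).

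Of the 7 matrix glycoproteins and proteoglycans none passed the test. At an unadjusted p under 0.05, 3 of the 7 were lower, where 14.7% of all features were. Over all features 9408 of 19296 differences were below 0. All 7 differences of these genes were below 0, with a median of -0.30 and with Fn1 and Fbn1 at only -0.01. This was not so in other fits: 5 of 7 were below 0 with quantile normalization, with normexp and without mutant replicate 2, with medians of -0.19, -0.20 and -0.22. Mutant replicate 2 was the lowest mutant pool in 7 of 7, against 46.3% of all features.

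Fbln1 encodes fibulin 1, a glycoprotein of elastic fibres and basement membranes, and its probe lies at chr15:85113334-85113393 on mm8. It measured 2.35, 2.29, 2.39 and 3.09 in the wild-type pools and 1.84, 1.76, 2.0 and 2.20 in the mutant pools. The highest mutant pool lay below the lowest wild-type pool, and wild-type replicate 4 lay well above the other wild-type pools. The mutant pools were at 67.0% of wild-type (log2 fold change -0.58, SE 0.20, adjusted p = 0.129). A second Fbln1 probe gave a larger difference of -0.98 (SE 0.15), from 1.6 to 0.62 on average, which passed the test over all probes (limma adjusted p = 0.0183, and 0.0106 without mutant replicate 2).

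Lum encodes lumican, a proteoglycan that binds collagen fibrils. It measured 4.08, 4.03, 4.34 and 4.29 in the wild-type pools and 3.84, 3.45, 3.85 and 3.80 in the mutant pools. Each mutant pool lay below each wild-type pool. The difference was -0.45 (SE 0.12, adjusted p = 0.0781) and, without the low mutant replicate 2, -0.35 (SE 0.09), which passed the test (adjusted p = 0.0386).

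Dcn, which encodes the related proteoglycan decorin, lay at 5.39, 5.14, 5.57 and 5.17 in the wild-type pools and at 5.0, 4.43, 5.2 and 5.09 in the mutant pools. The groups overlapped, and the difference of -0.38 (adjusted p = 0.237) was -0.22 without mutant replicate 2. A second, dimmer Dcn probe had the opposite sign, 0.37 (adjusted p = 0.257).

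Sparc, a matricellular protein that binds collagen and calcium, lay at 5.97, 5.85, 6.08 and 5.74 against 5.56, 5.38, 5.82 and 5.68. The difference was -0.30 (adjusted p = 0.163), and the second Sparc probe gave -0.60 (adjusted p = 0.146). Postn, or periostin, differed by -0.29 (adjusted p = 0.287). The fibronectin gene Fn1 and the microfibril gene Fbn1 both differed by -0.01, with 95% intervals of -0.17 to 0.16 and -0.29 to 0.27.

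None of the 8 collagen genes passed the test. Col1a1 and Col1a2 encode the chains of type I collagen, the main fibril of connective tissue, and Col3a1 the type III chain that assembles with it. Col1a1 lay at 6.00, 6.04, 6.28 and 6.05 in the wild-type pools and at 5.99, 5.80, 6.14 and 6.12 in the mutant pools, a difference of -0.08 with a 95% interval of -0.32 to 0.16. Col3a1 lay at 5.89, 5.91, 6.17 and 6.06 against 6.05, 5.89, 6.14 and 6.13, a difference of 0.05 with an interval of -0.17 to 0.26. Both pairs of groups overlapped throughout.

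Col1a2 lay at 6.77, 6.68, 6.94 and 6.61 in the wild-type pools and at 6.48, 6.15, 6.64 and 6.55 in the mutant pools. The difference was -0.29 (SE 0.13, adjusted p = 0.199), and -0.19 without mutant replicate 2, whose pool was the lowest. A second, dimmer Col1a2 probe had the opposite sign, 0.94 (adjusted p = 0.301), and 0.39 without mutant replicate 2 (adjusted p = 0.0748). With the probes averaged the difference was 0.32 (adjusted p = 0.393). The genes for type V collagen, which sets fibril diameter, differed by -0.14 for Col5a1 (adjusted p = 0.441) and by -0.21 for Col5a2 (adjusted p = 0.179). The median of the 5 fibrillar genes was -0.14, and it was -0.01 with quantile normalization and 0.13 with all probes of a gene averaged.

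Collagen VI forms beaded filaments around cells. Its Col6a1 chain measured 3.84, 3.85, 3.97 and 3.75 in the wild-type pools and 3.78, 3.43, 3.97 and 3.93 in the mutant pools. Col6a2 measured 3.39, 3.29, 3.44 and 3.38 against 3.32, 3.05, 3.53 and 3.5. Col6a3 measured 3.31, 3.26, 3.5 and 3.57 against 3.25, 3.07, 3.40 and 3.24. In all 3 genes mutant replicate 2 was the lowest mutant pool. Their differences were -0.08, -0.03 and -0.17 (adjusted p from 0.325 to 0.880), and without that pool 0.04, 0.07 and -0.11.

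The collagens shared an order of pools within a genotype. All 8 were highest in mutant replicate 3 and lowest in mutant replicate 2 among the mutant pools, and 6 of 8 were highest in wild-type replicate 3 among the wild-type pools. Over all features, mutant replicate 3 was the highest mutant pool in 15.8% and mutant replicate 2 the lowest in 46.3%, and wild-type replicate 3 was the highest wild-type pool in 22.8%. Over the 36 genes, mutant replicate 3 was the highest mutant pool in 18 and mutant replicate 2 the lowest in 22, while wild-type replicate 2 was the lowest wild-type pool in 18, against 22.6% of all features. The genes are not independent of each other, so these counts describe the pools and carry no test.

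**Figure D3:**
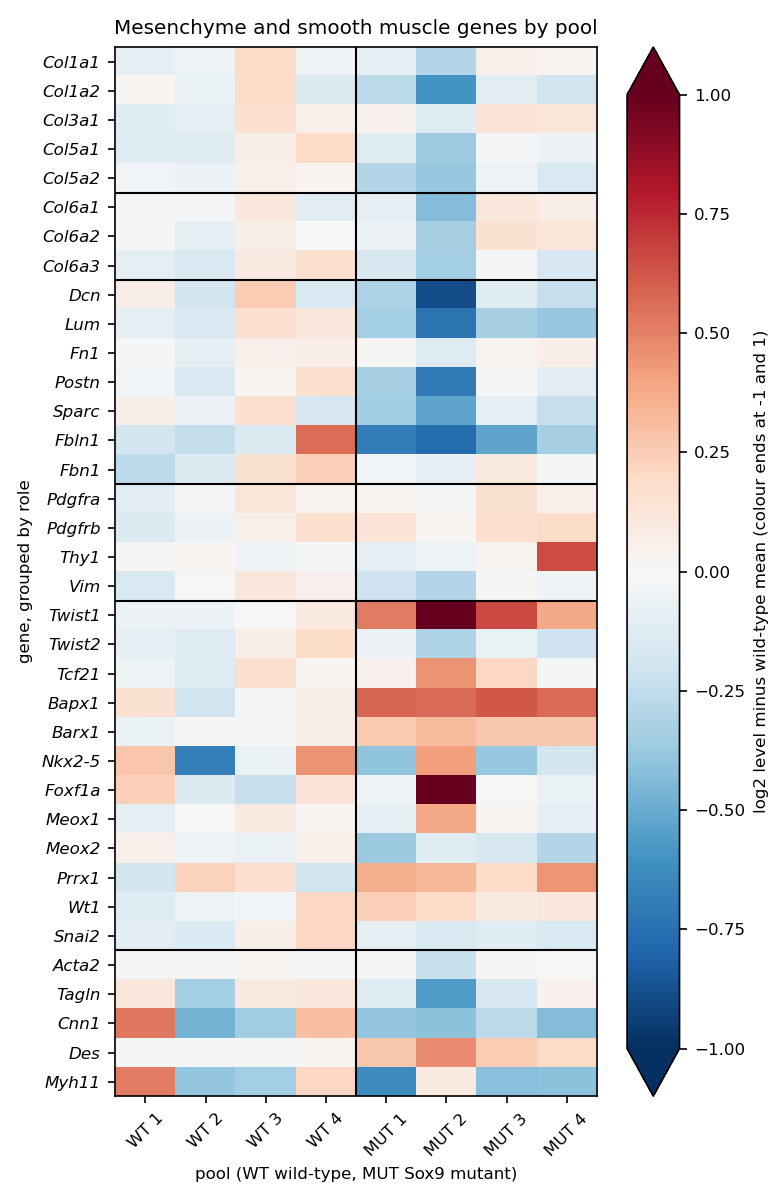
Log2 level of each of the 36 genes in each pool minus the mean of its 4 wild-type pools, in colour from -1 to 1 on the log2 scale; rows are genes grouped by role and columns are pools. Among the mutant pools the collagens and matrix genes are lowest in replicate 2, Twist1 and Foxf1a are highest there, and Bapx1 and Barx1 are above the wild-type mean in all 4 mutant pools.

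Of the receptors, surface and cytoskeletal genes, none of 4 passed the test. Pdgfra and Pdgfrb encode the receptors for platelet-derived growth factors on fibroblasts and pericytes. Pdgfra lay at 1.36, 1.45, 1.59 and 1.5 in the wild-type pools and at 1.5, 1.45, 1.62 and 1.52 in the mutant pools, a difference of 0.05 with a 95% interval of -0.12 to 0.22. Pdgfrb lay at 3.18, 3.26, 3.37 and 3.48 against 3.46, 3.34, 3.49 and 3.5, a difference of 0.13 with an interval of -0.07 to 0.32. For both receptors the groups overlapped.

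Vim, the intermediate filament of mesenchymal cells, lay at 5.47, 5.62, 5.73 and 5.66 against 5.41, 5.33, 5.63 and 5.58, a difference of -0.13 (adjusted p = 0.410). Thy1, a surface glycoprotein of fibroblasts and neurons, ran from 1.14 to 1.21 in the wild-type pools and measured 1.09, 1.13, 1.21 and 1.83 in the mutant pools. Its difference of 0.14 (adjusted p = 0.608) came with 1 mutant pool, replicate 4, well above the other 3.

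None of the 5 contractile genes of smooth muscle passed the test with all arrays, and Des rose without mutant replicate 2. Acta2, smooth muscle actin, lay at 3.84, 3.87, 3.89 and 3.85 in the wild-type pools and at 3.85, 3.64, 3.87 and 3.86 in the mutant pools. Apart from mutant replicate 2 all pools lay close together, and the difference was -0.06, with a 95% interval of -0.22 to 0.11. Without that pool it was 0.00.

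Des, the muscle intermediate filament desmin, lay at 0.31, 0.31, 0.31 and 0.35 in the wild-type pools and at 0.59, 0.79, 0.57 and 0.52 in the mutant pools. All mutant pools lay above all wild-type pools, and mutant replicate 2 was the highest. The difference was 0.30 (SE 0.07, 1.23-fold, adjusted p = 0.0604), and without mutant replicate 2 it was 0.24 (SE 0.05, adjusted p = 0.0187).

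Cnn1 and Myh11, calponin and the heavy chain of smooth muscle myosin, are markers of mature smooth muscle. They and Nkx2-5, a homeobox factor of heart, spleen and pyloric mesenchyme, varied among the wild-type pools, and they are given by pool because of that spread, which was seen first. Cnn1 measured 0.87, -0.13, -0.01 and 0.64 in the wild-type pools and between -0.09 and 0.08 in the mutant pools. Myh11 measured 0.14, -0.76, -0.71 and -0.16 in the wild-type pools and -1.0, -0.27, -0.79 and -0.78 in the mutant pools. Nkx2-5 measured -1.89, -2.85, -2.24 and -1.72 in the wild-type pools and -2.57, -1.76, -2.55 and -2.35 in the mutant pools. In all 3 genes wild-type replicates 1 and 4 were the high wild-type pools. The differences between genotypes were -0.38 for Cnn1, -0.34 for Myh11 and -0.14 for Nkx2-5 (adjusted p = 0.334, 0.412 and 0.771), with SDs in wild-type of 0.49, 0.44 and 0.50. Mutant replicate 2 was the highest mutant pool for Myh11 and Nkx2-5. Without it the differences were -0.36, -0.48 and -0.32 (adjusted p = 0.340, 0.181 and 0.414). The highest remaining Myh11 mutant pool, at -0.78, then lay just below the lowest wild-type pool, at -0.76.

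Tagln, the actin-binding protein transgelin, lay at 3.41, 2.96, 3.40 and 3.41 in the wild-type pools and at 3.17, 2.73, 3.14 and 3.34 in the mutant pools. Wild-type replicate 2 lay below the other wild-type pools. The groups overlapped, and the difference was -0.20 (adjusted p = 0.445), or -0.08 without mutant replicate 2.

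**Figure D4:**
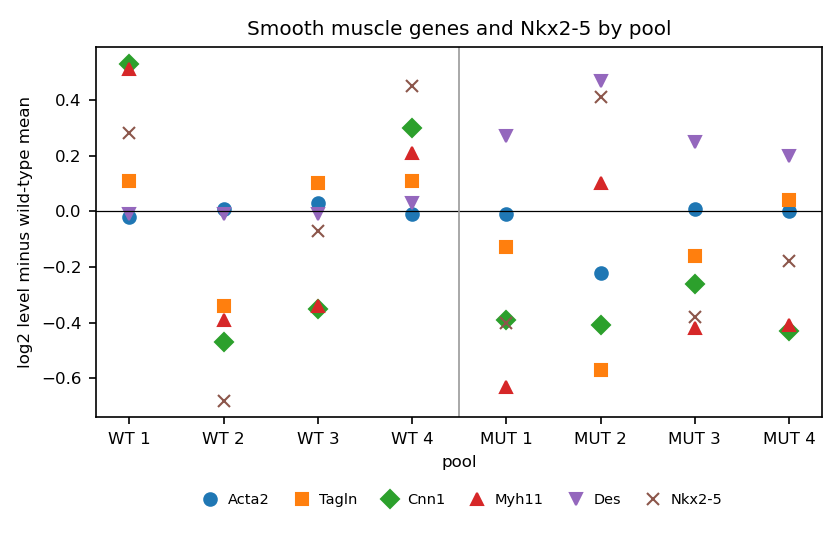
Log2 level of the 5 contractile genes and Nkx2-5 in each pool, minus the mean of the 4 wild-type pools. Cnn1, Myh11 and Nkx2-5 are high in wild-type replicates 1 and 4, Acta2 stays near 0 except in mutant replicate 2, and Des is above 0 in all 4 mutant pools.

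Other genes of the same tissue were counted from lists chosen by name. The lists were chosen with earlier results of these data known, so their counts beside the shares over all features carry no test. Apart from genes already given above, these and the markers of other tissues below were read only with all arrays and without mutant replicate 2. They were not read with the other scalings. Over all features 2.23% rose and 3.28% fell with all arrays, and 7.18% rose and 10.1% fell without mutant replicate 2. Of 29 further genes of the interstitial matrix, 1 fell and none rose: Igfbp5, which binds insulin-like growth factors, went from 3.73 ± 0.08 to 3.35 ± 0.10 (SD, n = 4 each; log2 fold change -0.38, adjusted p = 0.0367). The list's median was -0.12. With mutant replicate 2 left out, 3 fell, with Eln (-0.77, adjusted p = 0.0461) and Tnc (-0.83, adjusted p = 0.0164) beside Igfbp5. Of 18 further smooth muscle and pericyte genes, 1 fell and none rose: Rgs5, a G protein regulator of pericytes, went from 1.98 ± 0.13 to 1.25 ± 0.31 (SD, n = 4 each; log2 fold change -0.74, adjusted p = 0.0438). The list's median was 0.00, and without mutant replicate 2 Cnn2 rose too (0.24, adjusted p = 0.0350). Of 26 further mesenchymal transcription factors none passed with all arrays, and 4 fell and none rose without mutant replicate 2. Gata6, a zinc finger factor that pancreatic epithelium also expresses, had the smallest p, at -0.26 (adjusted p = 0.0511, and 0.0240 at -0.22 without mutant replicate 2).

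Of 22 signals by which mesenchyme acts on epithelium, 1 rose and 1 fell, with a median of 0.06. Slit2, a secreted guidance ligand of the Robo receptors, rose from 2.0 ± 0.14 to 2.46 ± 0.06 (SD, n = 4 each; 0.46, adjusted p = 0.0246). Igf1, insulin-like growth factor 1, fell from 2.54 ± 0.07 to 1.99 ± 0.21 (SD, n = 4 each; -0.55, adjusted p = 0.0359). Without mutant replicate 2, 3 of the 22 rose and 3 fell, where 7.18% of all features rose and 10.1% fell. Beside Slit2, Slit3 (0.34, adjusted p = 0.0274) and Wnt5a (0.75, adjusted p = 0.00723) rose in that fit. Beside Igf1, Fgf10 (-0.48, adjusted p = 0.0487) and Gdnf (-1.07, adjusted p = 0.00143) fell. With all arrays Fgf10 was at -0.55 (adjusted p = 0.0639) and Gdnf at -0.40 (adjusted p = 0.681).

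Of 16 ligands, receptors and related genes of the TGF-beta and PDGF pathways 4 rose and none fell, where 2.23% of all features rose and 3.28% fell. The list was chosen with earlier results of these data known, so its count beside that share carries no test. The median of the 16 was 0.15. Whether these calls hold with the scalings that ended the call of Bapx1 was not tested. The genes that rose were Tgfbi, a matrix protein induced by TGF-beta (0.66, adjusted p = 0.0111), and the genes of 3 ligands of the PDGF receptors, Pdgfc (0.47, 0.0187), Pdgfb (0.46, 0.0189) and Pdgfd (1.26, 0.0483). The gene of the remaining ligand, Pdgfa, did not pass with all arrays (0.35, adjusted p = 0.0719) and rose without mutant replicate 2 (0.42, adjusted p = 0.00856). Pdgfd had an SD of 0.62 in the wild-type pools and 0.05 in the mutant pools. The receptors Pdgfra and Pdgfrb, given above, did not pass the test. Without mutant replicate 2, 5 of the 16 rose and 2 fell, where 7.18% of all features rose and 10.1% fell.

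Markers of other tissues were read in the same pools as the mean level over each list. The 13 epithelial markers were above background on all 8 arrays, with means of 2.56 to 2.69 in wild-type pools, 2.58 in mutant replicate 2 and 2.71 to 2.84 in the other mutant pools, which lay above every wild-type pool. None of the 13 passed the test, and 9 differences were positive and 4 negative. Cdh1 and Epcam differed by 0.00 and -0.03, and Rab25 (-0.24, adjusted p = 0.297) was lower in every mutant pool than in every wild-type pool. Without mutant replicate 2, 3 of the 13 rose and none fell, where 7.18% of all features rose. They were the keratins Krt19 (0.48, adjusted p = 0.00612), Krt8 and Krt18. None of 12 endothelial markers passed (1.23 to 1.38 against 1.2 to 1.42), nor any of 12 myeloid and lymphoid markers (-0.38 to -0.08 against -0.36 to -0.10). In the fit without mutant replicate 2, Emcn of the endothelial list (0.20, adjusted p = 0.0447) and Itgam of the myeloid list (0.82, adjusted p = 0.0290) rose. Of 8 mesothelial markers, which include Wt1 and Krt19, Upk1b rose (0.68, adjusted p = 0.0370), and the means were 0.12 to 0.29 against 0.24 to 0.31. Of these 8 differences 6 were positive and 2 negative. Msln (-0.47, adjusted p = 0.148) did not pass but was lower in every mutant pool than in every wild-type pool. Of 9 erythroid markers 2 rose and none fell, where 2.23% of all features rose and 3.28% fell. They were the embryonic globins Hbb-y (1.68, adjusted p = 0.0436) and Hba-x (1.43, adjusted p = 0.0482). Both rose also without mutant replicate 2 (1.49 and 1.27, adjusted p = 0.0317 and 0.0365). In that fit Epb42 fell (-1.25, adjusted p = 0.0149), which did not pass with all arrays (-0.63, adjusted p = 0.524). The adult globin genes Hbb-bt (-0.37, adjusted p = 0.233) and Hba-a1 (-0.29, adjusted p = 0.440) did not pass. The means of this list were -0.86 to -0.08 in wild-type pools, 0.91 in mutant replicate 2 and -1.07 to -0.61 in the other mutant pools, and its median was 0.03, or -0.39 without that pool. Of 8 markers of cartilage and of gut or spleen mesenchyme, which include Barx1 and Nkx2-5, Barx1 alone rose. The means were -1.38 to -0.97 in wild-type pools, -0.52 in mutant replicate 2 and -1.30 to -1.18 in the other mutant pools, within the wild-type range.

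Of 9 Schwann and glial markers 5 fell, where 3.28% of all features fell. This list too was chosen with earlier results of these data known, so its count carries no test. Among the 5 were S100b (-1.62, adjusted p = 0.00837) and Sox10 (-1.04, adjusted p = 0.00595). The means of the list were -0.36 to -0.11 in wild-type and -1.13 to -0.63 in mutant pools. These cells lie in the nerves of the mesenchyme. Their part in the differences of Fbln1, Lum and Meox2, and that of gut or spleen mesenchyme in the differences of Bapx1 and Barx1, was not tested.

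Other probes of the same genes were read beside the main ones. For 19 of the 36 genes 29 further probes were tested, and 16 of these had the sign of the gene's main probe with all arrays, or 21 without mutant replicate 2. Col3a1 was 1 gene whose probes disagreed: its main probe gave 0.05 and a dimmer one -0.32 (adjusted p = 0.0761 over all probes), which passed without mutant replicate 2 at -0.30 (adjusted p = 0.0472). The Fn1 probes ran from -0.01 for the brightest to 0.68 for the dimmest (adjusted p = 0.321), and without mutant replicate 2 all 4 were positive, from 0.04 to 0.30, with none passing.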

How the data were processed

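The scanner files are, per the file headers, Agilent Feature Extraction 9.5.3.1 output of array design 014868, with probe coordinates on mm8. The deposited processed signal is an intensity on a linear scale, corrected for background by the scanner software within each array. The authors' normalization steps are not given in the sources used here, beyond limma in the submitters' processing notes. The deposited series table, also an intensity, served only as an alternative.

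Control and outlier spots were left out, spots of a probe were averaged as log2, and each array's 75th percentile was subtracted. Of 41174 probes, 29458 were well above background on at least 4 of 8 arrays, and the probe with the highest mean stood for each gene. Names came from the files and a RefSeq list of genes on GRCm38.p6, used for names and promoters only. Annotation of mm8 was not used here, so exons and UTRs of the probes are not given. limma 3.58.1 in R 4.3.3 with the data.table package (version 1.17.8) fitted genotype to all 19296 features, two-sided, with Benjamini-Hochberg adjustment and calls at 0.05. The script was tested on simulated data.

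The genes and lists were chosen with earlier results of these data known. Every gene is named. Pool values are given for genes called, for genes whose groups did not overlap and for the 3 brightest of each role, and Cnn1, Myh11, Nkx2-5, Prrx1, Foxf1a and Thy1 were added after their values were seen. Of other lists up to 4 called genes are named by adjusted p, or the 1 with the smallest p, and some genes called only without mutant replicate 2, Hbb-bt, Hba-a1 and Pdgfa were added after their values were seen. The pools are separate samples by the labels, and the precision is limited by their number and by the array of mutant replicate 2, which stood apart. Deviations of same-numbered pools correlated at -0.02 to 0.13, and pools 3 and 4 correlated best with the pool of their own number. Numbers were not taken as pairs in the main fit, and a fit with the numbers as a block is given below. Alternatives covered scaling, background correction, dim probes, probe choice, the authors' series values, array weights, the variance model, a replicate block and each array left out.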

Additional observations from a re-analysis of the deposited data

Results flagged for a closer look

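Of 72 groups of 4 pools, 1 for each gene and genotype, 9 held a pool far from the other 3 by Dixon's criterion, which chance gives in about 1 in 20 groups. In 5 of the 9 the pool was mutant replicate 2, the array that stood apart. There Lum measured 3.45 against 3.80 to 3.85 in the other mutant pools, Acta2 3.64 against 3.85 to 3.87, Barx1 1.0 against 0.94 to 0.95, Twist1 -1.25 against -3.26 to -2.98, and Foxf1a -2.66 against -4.70 to -4.63. Thy1 measured 1.83 in mutant replicate 4 against 1.09 to 1.21. Among the wild-type pools, Fbln1 measured 3.09 in replicate 4 against 2.29 to 2.39, Tagln 2.96 in replicate 2 against 3.40 to 3.41, and Des 0.35 in replicate 4 against 0.31 in the other 3.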

How the results depend on the processing

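With all arrays 1063 features were called, 2 of the 36 genes rose, none fell, and their median was -0.08. Leaving out 1 array gave 359 to 3342 calls, 1 to 4 genes higher and 0 to 2 lower. Centring on the array median gave 45 calls, 0 genes higher, a median of -0.49, a Sox9 difference of -1.73 (adjusted p = 0.109) and Barx1 at -0.13. It moved the median of all features to -0.40. Quantile normalization gave 1 gene higher and a median of 0.00. Normexp gave 80 calls and 0 genes higher. The series table gave 2185 calls and 2 genes lower. Without a filter on dim probes there were 426 calls and 1 gene higher. Averaging probes gave a median of 0.08. Array weights gave 4747 calls, 5 genes higher, 2 lower and a median of 0.00. Trend and robust variance estimates gave 1595 calls and 1 gene lower. The replicate block, with replicate numbers as a block, gave 117 calls and 0 genes higher (Bapx1 0.58, adjusted p = 0.0731; Barx1 0.28, adjusted p = 0.123). Pools 3 and 4 but not 1 and 2 correlated best with the pool of their own number. The cause of these changes was not tested. A slide block was not run, since each slide held 1 genotype, and Sox9 had no value from the series table. Sox9 kept its sign in every other fit run. The 36 genes were well above background on all 8 arrays, but normexp moved Twist1 from 0.99 to 0.25 and Foxf1a from 0.46 to -0.35.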
